A study of Mus musculus with 6 samples.

Results

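The DCUN1D genes and Cand1 are 6 genes whose products act on cullins, the scaffold proteins of the cullin-RING ubiquitin ligases. The 6 were chosen by gene symbol, as Dcun1d1, Dcun1d2, Dcun1d3, Dcun1d4, Dcun1d5 and Cand1, from the 18288 gene symbols of the deposited table, and all 6 were among the 13819 genes tested. They were picked with the measured difference between Nae1T-KO and Nae1WT libraries already known. Their fold changes and adjusted p-values therefore describe where each gene stood in the fit over all genes, and nothing further is drawn from them.

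RNA was sequenced from mouse CD8+ T cells that had been activated in culture and collected at day 2. There were 3 libraries from Nae1T-KO mice and 3 from Nae1WT mice. Strain, age, allele, the driver of the deletion, the activating stimulus and any agent shared by both groups were not stated in the labels. Titles call the samples biological replicates without saying whether each came from a separate mouse. Both sexes were present in each group, by Xist and Y-linked genes, so no group came from a single mouse. Whether libraries of the same sex in a group came from separate mice is not known. The p-values rest only on how far these 6 samples differ, which may in part be technical.

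NEDD8 is a ubiquitin-like protein that is activated by the NAE1-UBA3 enzyme, passed to the conjugating enzymes UBE2M or UBE2F, and attached to cullins, which switches the cullin ligases on. The DCUN1D proteins, relatives of yeast Dcn1, bind both the cullin and the acetylated N-terminus of the NEDD8-loaded conjugating enzyme and speed the transfer. DCUN1D1 and DCUN1D2 carry a ubiquitin-binding UBA domain, DCUN1D3 is anchored to membranes by a lipid, and DCUN1D4 and DCUN1D5 are found largely in the nucleus. CAND1 binds cullins that lack NEDD8 and exchanges their substrate receptors. Most of this is known from yeast and human cells.

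Values are normalized counts, that is, reads assigned to a gene divided by 1 size factor per library. Recovered totals were 16994995 to 20849511 reads in Nae1T-KO libraries and 15628252 to 25444653 in Nae1WT libraries. Nae1 was measured at 338 to 390.3 normalized counts in Nae1T-KO cells, with 1601 to 1882 in Nae1WT cells, in the direction of the labels. The CD8 and CD3 genes of the marker list summed to 16935 to 19763 normalized counts in Nae1T-KO and 19324 to 21685 in Nae1WT. Of these 5 genes Cd3g was called lower, at 2081 to 2445 in Nae1T-KO and 2959 to 3386 in Nae1WT (limma, adjusted p = 0.00365), and the other 4 were not called. Cd4 ranged over 20.1 to 118 in Nae1T-KO and 20.9 to 119 in Nae1WT. The B cell and erythroid marker sums were highest in Nae1T-KO replicate 2, at 555 and 2048 normalized counts, against 201 to 357 and 145 to 643 in the other libraries. Both sexes were present in each group: Xist stood at 14225 normalized counts or more in replicates 1 and 2 of Nae1T-KO and in replicate 3 of Nae1WT, and in the other 3 libraries it was 4.04 or less.

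Dcun1d3 was the member with the largest difference. It stood at 353, 329 and 295 normalized counts in Nae1T-KO cells, with 141, 144 and 152 in Nae1WT cells. Every Nae1T-KO library was far above the highest Nae1WT library. The Nae1T-KO mean was 326 ± 29.4 (SD, n = 3) and the Nae1WT mean 146 ± 5.29 (SD, n = 3). On the log2(normalized count + 1) scale the fold change was 1.15 ± 0.12 (SE), with a 95% interval of 0.89 to 1.41, a level 2.22-fold higher in Nae1T-KO (limma, adjusted p = 0.000473). It ranked 253 among the 13819 tested genes by log2 increase.

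**Figure D1:**
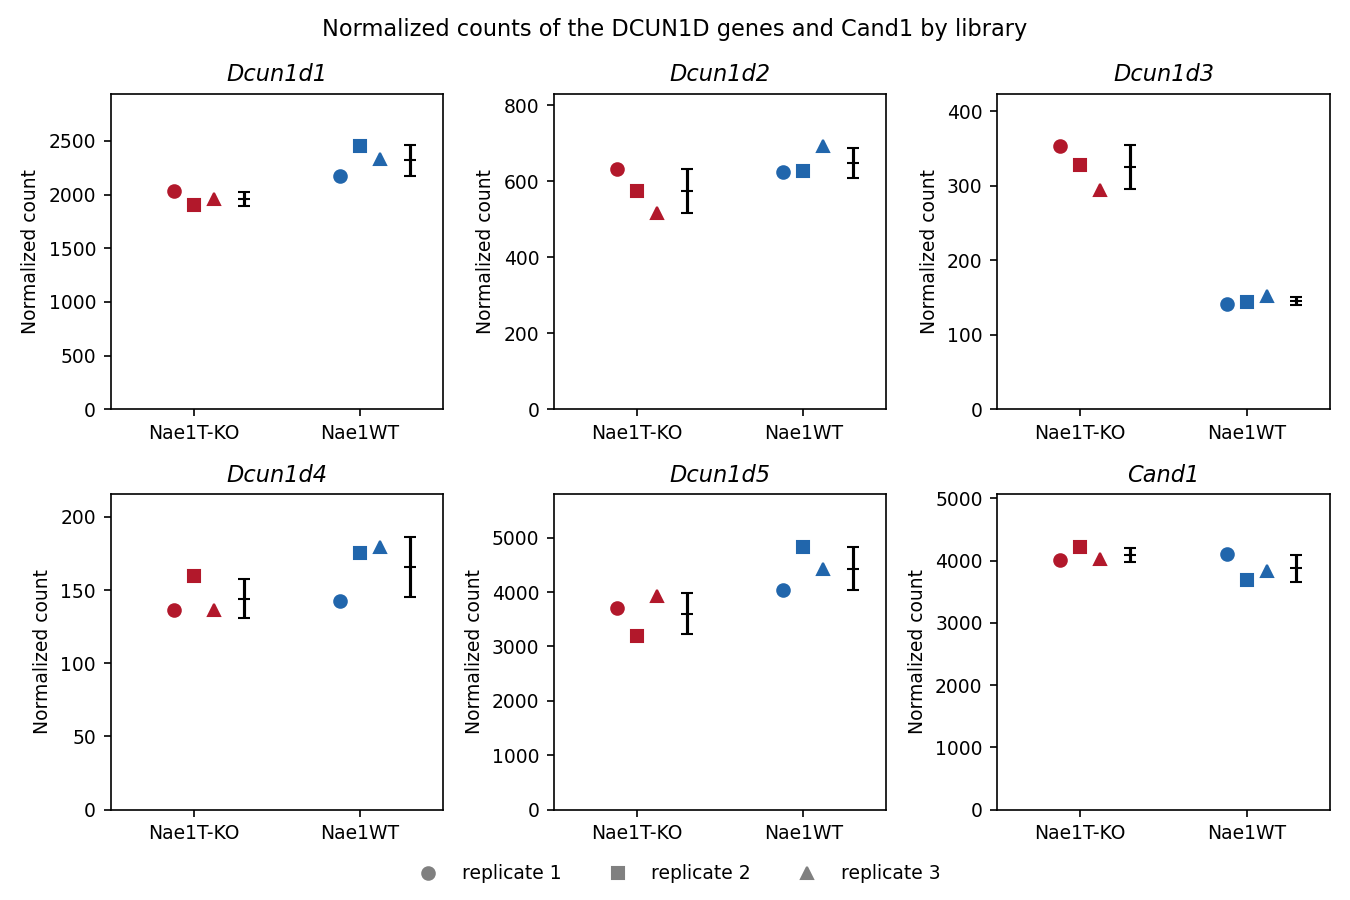
Normalized count of each of the 6 genes (vertical axis, from 0) in each Nae1T-KO and Nae1WT library; marker shapes give the replicate number and the black bar the mean and SD of 3 libraries. Dcun1d3 is at 295 to 353 in Nae1T-KO and 141 to 152 in Nae1WT, while Cand1, Dcun1d2 and Dcun1d4 overlap between the groups.

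Between 292 and 373 reads lay behind each Nae1T-KO value, and between 115 and 199 behind each Nae1WT value. The call held in each of 19 alternatives, with log2 fold changes of 1.09 to 1.22 and adjusted p between 1.88e-11 and 0.0176. Without Nae1T-KO replicate 2, the library with the highest B cell and erythroid sums, the log2 fold change was 1.14. Between libraries alike in Xist the log2 difference was 1.03 to 1.22 over 4 pairs, which share libraries and so are not independent. Myeloid and dendritic markers also differed between the groups, at a summed 66.0 to 115 normalized counts in Nae1T-KO and 19.9 to 33.5 in Nae1WT over 6 of the 9 listed genes, of which only Lyz2 and Xcr1 passed the filter of at least 10 normalized counts in at least 3 libraries. Xcr1 passed it through its Nae1T-KO libraries, with 10.1, 17.6 and 15.1 in Nae1T-KO cells and 4.91, 2.09 and 3.81 in Nae1WT cells. Lyz2 was the most abundant of the 6, at 16.8, 54.6 and 43.4 in Nae1T-KO cells and 18.4, 13.6 and 13.7 in Nae1WT cells, while Itgam, Cd14, Itgax and Flt3 were each under 18 in every library. Their part in the Dcun1d3 value was not tested. In bulk RNA, a change in the number of cells of a type and a change in RNA per cell cannot be told apart.

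Dcun1d3 (ENSMUSG00000048787.13) lies on the minus strand of chromosome 7, from 119852796 to 119896298 in GRCm38 (mm10). Its 5′ end overlaps that of Lyrm1, a gene on the opposite strand, and 37 bases are exonic in both, 0.472% of the exonic bases of Dcun1d3. Whether counting used strand was not stated. Lyrm1 averaged 207 normalized counts in Nae1T-KO cells and 182 in Nae1WT cells.

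The promoter windows of RefSeq (GRCm38.p6; 250 bases before to 50 after a transcript start, 12 windows for the 6 genes) were searched on both strands, after the values were known, for letters bound by stress and activation factors. They were the antioxidant response element core TGACNNNGC, the cAMP response element TGACGTCA, the AP-1 element TGANTCA and the E-box CACGTG. The TGACGTCA match lay in the window of the Dcun1d3 start at position 119895745, with its first base 111 bases before that start, and is shown because this is the member with the largest difference. The 30 bases around it, on the minus strand, with the 8 matching letters in capitals, are as follows.
Dcun1d3, chr7:119895838-119895867: cgcgtacgtcgTGACGTCAccctcctcgtt
This stretch also overlaps annotated exons of Dcun1d3 and Lyrm1. The same letters occur in 1.79% of the 32851 promoter windows in the table. One of the 12 windows, of Dcun1d4, held the AP-1 letters, which 7.81% of all windows hold. None of the 12 held the antioxidant letters or the E-box, which 12.4% and 7.15% of all windows hold. A match is only a run of letters and does not show binding.

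Dcun1d1, whose human counterpart is also known as the oncogene SCCRO, was slightly lower in Nae1T-KO. It had 2030, 1902 and 1955 normalized counts in the Nae1T-KO samples, whereas Nae1WT samples had 2171, 2451 and 2330. Every Nae1T-KO library lay below every Nae1WT library. The log2 fold change was -0.24 ± 0.07 (SE), with a 95% interval of -0.39 to -0.08, and the call stood at the threshold (limma, adjusted p = 0.0498). It held in 6 of 19 alternatives, over which adjusted p ran from 0.0326 to 0.246. It ended without Nae1T-KO replicate 1, 2 or 3 (adjusted p = 0.0752, 0.128 and 0.0664) and without Nae1WT replicate 2 or 3 (adjusted p = 0.191 and 0.146). Adding sex to the fit gave 0.0727. Dcun1d1 (ENSMUSG00000027708.14) lies on chromosome 3 from 35892105 to 35937445, and 123 of its exonic bases are shared with the antisense gene Gm15952, which averaged 8.04 normalized counts in Nae1T-KO cells and 10.7 in Nae1WT cells.

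Dcun1d2, the closest relative of Dcun1d1 by domain make-up, was measured at 632, 574 and 517 normalized counts in Nae1T-KO cells, with 625, 626 and 693 in Nae1WT cells. Nae1T-KO replicate 1 lay within the Nae1WT range. The log2 fold change was -0.18 (95% interval -0.39 to 0.04), at an adjusted p of 0.253 in limma. It was -0.10 when Nae1T-KO replicate 3 was left out, and ran from -0.25 to -0.10 over the 19 alternatives.

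Dcun1d5 was the most abundant of the 6 per length. It had 3697.5, 3190 and 3925 normalized counts in the Nae1T-KO samples, whereas Nae1WT samples had 4035, 4835 and 4418. The groups did not overlap, with Nae1T-KO replicate 3 just under Nae1WT replicate 1. The log2 fold change was -0.30 ± 0.09 (SE), with a 95% interval of -0.50 to -0.09, and did not pass (limma, adjusted p = 0.0600). It passed in DESeq2 on recovered reads, at an adjusted p of 0.0281. It also passed when either Nae1T-KO replicate 3 or Nae1WT replicate 1 was left out, at 0.0323 and 0.0470, and adjusted p ran from 0.0281 to 0.242 over the 19 alternatives. Dcun1d5 (ENSMUSG00000032002.10) lies on chromosome 9 from 7184520 to 7208205.

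Dcun1d4, the other nuclear member, was expressed at a low level. It was measured at 136, 160 and 136 normalized counts in Nae1T-KO cells, with 142, 176 and 180 in Nae1WT cells. The 2 groups overlapped, since Nae1T-KO replicate 2 lay above Nae1WT replicate 1. The log2 fold change was -0.20 (95% interval -0.52 to 0.12), at an adjusted p of 0.405 in limma. It was -0.30 when Nae1WT replicate 1 was left out, and ran from -0.38 to -0.14 over the 19 alternatives.

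Cand1, the exchange factor, was among the more highly expressed members. It had 4018, 4226 and 4026 normalized counts in the Nae1T-KO samples, whereas Nae1WT samples had 4106, 3688 and 3831. Nae1WT replicate 1 lay within the Nae1T-KO range. The log2 fold change was 0.08 (95% interval -0.07 to 0.23), at an adjusted p of 0.474 in limma. It was 0.12 when Nae1WT replicate 1 was left out and 0.04 for Nae1WT replicate 2, the lowest value over the 19 alternatives, and total-count scaling gave the highest, 0.13. Cand1 (ENSMUSG00000020114.12) lies on chromosome 10 from 119199255 to 119240055, Dcun1d2 (ENSMUSG00000038506.13) on chromosome 8 from 13255963 to 13288131 and Dcun1d4 (ENSMUSG00000051674.15) on chromosome 5 from 73481000 to 73560794. No exonic base of these 3 genes or of Dcun1d5 is shared with another GENCODE gene.

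Of the 6 genes, 1 was called higher in Nae1T-KO and 1 lower, and 4 did not pass. Over all genes tested 12.7% were called, with 6.53% higher and 6.18% lower, or 903 and 854 genes. Total-count scaling changed that split to 1176 and 621, and edgeR on recovered reads gave 942 and 854. Non-overlapping groups were found for 3 of the 6 and for 33.7% of all genes tested. The median log2 fold change was -0.19 over the 6 and -0.01 over all genes tested, with single values from -0.30 to 1.15 in the 6. Within the family, Dcun1d1, Dcun1d2, Dcun1d4 and Dcun1d5 had negative values and Dcun1d3 a positive one, under all 19 alternatives, although of the 4 negative ones only Dcun1d1 was called. Some of these alternatives cannot change a fold change.

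**Figure D2:**
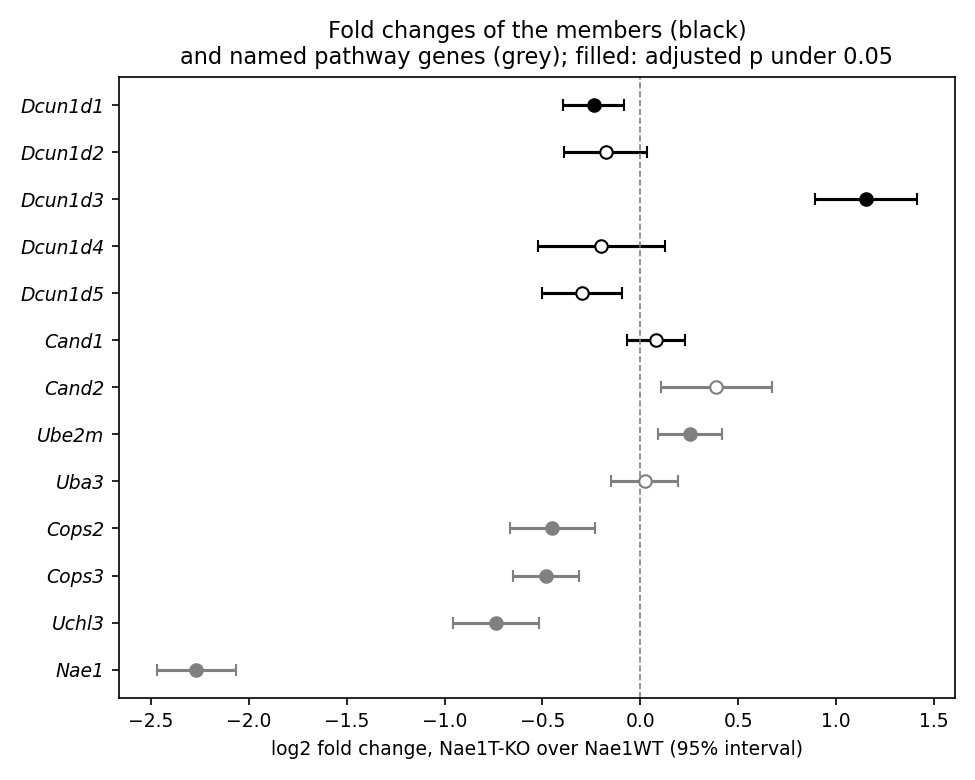
Log2 fold change of Nae1T-KO over Nae1WT with its 95% interval for the 6 genes (black) and for named genes of the NEDD8 pathway (grey); filled points had an adjusted p under 0.05. Dcun1d3 stands at 1.15, away from the other DCUN1D genes between -0.30 and -0.18, and Nae1 stands at -2.27.

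Levels of different genes were compared as normalized counts per kilobase of exonic sequence in GENCODE M21. In Nae1WT the order, from the highest, was Dcun1d5, Cand1, Dcun1d1, Dcun1d2, Dcun1d4 and Dcun1d3. Dcun1d5 stood at 1171 ± 122 per kilobase in Nae1T-KO cells and 1439 ± 130 in Nae1WT cells (SD, n = 3 each). Cand1 stood at 489 ± 14.1 in Nae1T-KO cells and 464 ± 25.4 in Nae1WT cells (SD, n = 3 each). Dcun1d1 stood at 217 in Nae1T-KO and 257 in Nae1WT. Dcun1d2 stood at 115 in Nae1T-KO and 130 in Nae1WT. Within either group, no library of a gene overlapped those of its neighbour in the order.

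The lowest places were exchanged between the groups. In Nae1T-KO, Dcun1d3 stood at 41.5 ± 3.75 (SD, n = 3) and Dcun1d4 at 24.8 ± 2.30 (SD, n = 3) per kilobase, while in Nae1WT Dcun1d3 stood at 18.6 ± 0.68 (SD, n = 3) and Dcun1d4 at 28.6 ± 3.52 (SD, n = 3). Dcun1d4 over Dcun1d3, a ratio taken inside each library and so free of the size factors, was 0.52, 0.65 and 0.62 in Nae1T-KO cells and 1.36, 1.64 and 1.60 in Nae1WT cells. The exonic length of all annotated transcripts was used, so a level depends on which transcripts the cells make. The fold difference between the groups in such a ratio does not depend on the lengths used.

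**Figure D3:**
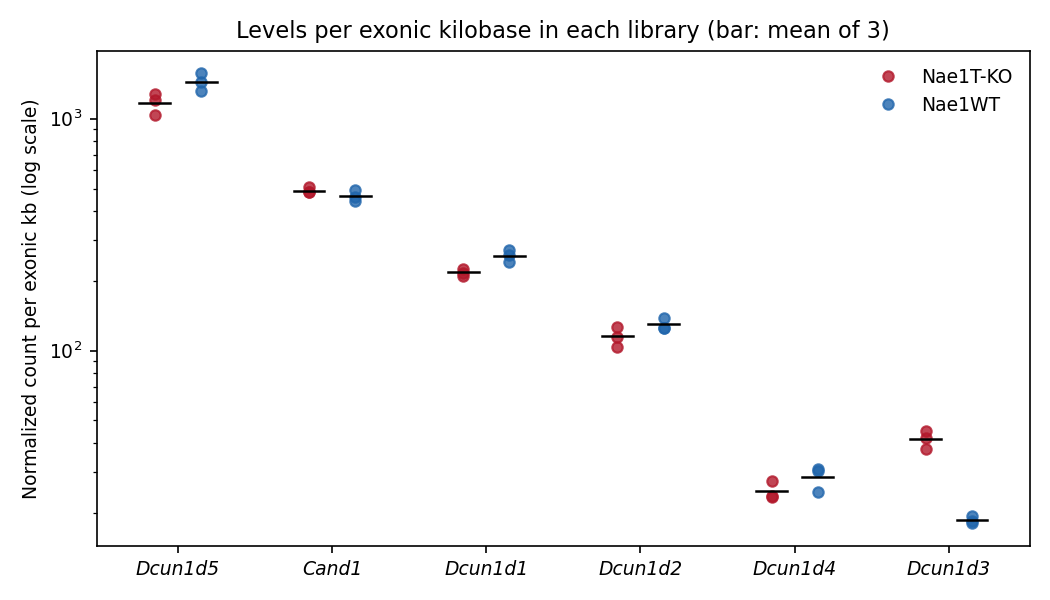
Normalized count per exonic kilobase (log axis) of the 6 genes in each library, Nae1T-KO in red and Nae1WT in blue, ordered by the Nae1WT mean; black bars are means of 3 libraries. Dcun1d5 is highest at over 1000 per kilobase in every library, and Dcun1d3 lies above Dcun1d4 in Nae1T-KO and below it in Nae1WT.

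Dcun1d5 made up most of the summed DCUN1D level per kilobase in both groups, 72.4% to 77.0% in Nae1T-KO libraries and 76.2% to 77.9% in Nae1WT libraries. Dcun1d1 made up 13.1% to 14.7% in Nae1T-KO and 13.5% to 14.0% in Nae1WT, ranges that overlap. The share of Dcun1d3 was 2.78%, 2.93% and 2.27% in Nae1T-KO cells and 1.05%, 0.91% and 1.03% in Nae1WT cells. Dcun1d3 was thus a small part of the family in all 6 libraries, with no overlap between the groups. The summed level of the 5 DCUN1D genes was 1622, 1432 and 1657 per kilobase in Nae1T-KO cells and 1720, 2017 and 1883 in Nae1WT. The abundance order of the messenger RNAs does not give that of the proteins, which were not measured here.

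The genes with the profile most like each member over the 6 libraries were found by the root mean square difference of centred log2 values. For Dcun1d3 they were Trip10, which encodes a CDC42-interacting adaptor, Ly6a, which encodes the surface antigen Sca-1, and Serpina3f, of the serpin family, at 0.05, 0.08 and 0.09. Their log2 fold changes were 1.09, 1.03 and 0.99. For Dcun1d1 they were Mrpl9, a mitochondrial ribosomal protein gene, Arl1 and Ppp6c, at 0.02 each. For Dcun1d5 they were Mphosph10, Nasp, a histone chaperone gene, and Snrnp27, at 0.02 each, with log2 fold changes of -0.32, -0.28 and -0.34. Cand1 lay nearest to Jak1, a cytokine receptor kinase gene, Nbr1 and Smarcb1, at 0.01 each. Dcun1d2 lay nearest to Papss1, Med22 and Vezt, at 0.03 each, and Dcun1d4 to Zfp763, Sdr39u1 and Fam120c, at 0.05, 0.06 and 0.06. Because a profile includes the difference between the groups, log2 fold changes near that of the member follow from this choice of genes.

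The proteins that the DCUN1D family and CAND1 work with were covered by 5 lists of 37 genes, all of them tested. The lists were chosen with earlier results of these data known, so their counts are description only. Of the 37, 1 was called higher, 4 lower and 32 not, with a median log2 fold change of -0.04, while 12.7% of all tested genes were called. Among the 7 core conjugation genes, Ube2m and Ube2f encode the NEDD8 conjugating enzymes. Ube2f had a log2 fold change of 0.02 (limma, adjusted p = 0.895), and its groups overlapped. Ube2m was measured at 3833, 3475 and 3858 normalized counts in Nae1T-KO cells, with 2900, 3199 and 3268 in Nae1WT cells. The groups did not overlap for Ube2m, and the log2 fold change was 0.25 (limma, adjusted p = 0.0481), a call held in 10 of 19 alternatives with adjusted p from 0.0179 to 0.267. It ended without any 1 of 5 libraries, all but Nae1T-KO replicate 2, at adjusted p of 0.0822 to 0.141, and at 0.0758 when sex was added to the fit. Nae1 was called lower, with a log2 fold change of -2.27 (limma, adjusted p = 5.03e-07). Uba3, the partner of Nae1, had 0.02 (limma, adjusted p = 0.884), a value that turned negative without Nae1T-KO replicate 1 or 3 or Nae1WT replicate 1.

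Of the 12 genes for NEDD8 removal, 3 were called lower and 0 higher in limma, edgeR, DESeq2 and limma-voom. These were run on the same libraries, and limma called 6.18% of all tested genes lower. This list too was chosen with earlier results known, so the counts only describe it. At an unadjusted p under 0.05 in limma, 4 of the 12 were lower and 0 higher, against 14.7% and 14.4% of all tested genes. Uchl3, which encodes a hydrolase that processes ubiquitin and NEDD8, averaged 1156 ± 138 normalized counts (SD, n = 3) in Nae1T-KO cells, with 1922 ± 169 (SD, n = 3) in Nae1WT cells. It had a log2 fold change of -0.74 (limma, adjusted p = 0.00155). Cops3 and Cops2, subunits of the COP9 signalosome that takes NEDD8 off cullins, had -0.48 (adjusted p = 0.00367) and -0.45 (adjusted p = 0.0161). The other 9 of the 12 genes, most of them also signalosome subunits, were not called, with log2 fold changes from -0.24 to 0.09. The call for Uchl3 held in 19 of 19 alternatives, that for Cops3 in 18 and that for Cops2 in 15. Cops2 did not pass without Nae1T-KO replicate 2, Nae1WT replicate 2 or Nae1WT replicate 3 (adjusted p = 0.0529, 0.0656 and 0.0662), within 0.000372 to 0.0662 over the alternatives. With a replicate block by library number on 4 libraries, neither Cops2 nor Cops3 passed (limma, adjusted p = 0.0544 and 0.0608).

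No cullin, adaptor or other regulator gene passed, of 8, 4 and 6 in these lists, in limma, edgeR or limma-voom, and DESeq2 called 2 cullin genes, 1 in each direction. At an unadjusted p under 0.05 in limma there were 4, 2 and 3 genes, where 29.1% of all tested genes passed. The log2 fold changes of the 8 cullin genes ran from -0.69 to 0.26, with a median of 0.01. Cand2, the paralog of Cand1, had 215, 213 and 180 normalized counts in the Nae1T-KO samples, whereas Nae1WT samples had 156, 158 and 148. Its groups did not overlap, and its log2 fold change was 0.39 (95% interval 0.11 to 0.67), at an adjusted p of 0.0720 in limma. It passed in 1 of 19 alternatives, without Nae1T-KO replicate 3 (adjusted p = 0.0465, within 0.0465 to 0.411 over the alternatives). The difference in response between Cand2 and Cand1 was not tested. Cand2 shares 53 exonic bases with Rpl32 on the opposite strand, a ribosomal protein gene with 25817 normalized counts in Nae1T-KO cells and 25136 in Nae1WT cells.

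**Figure D4:**
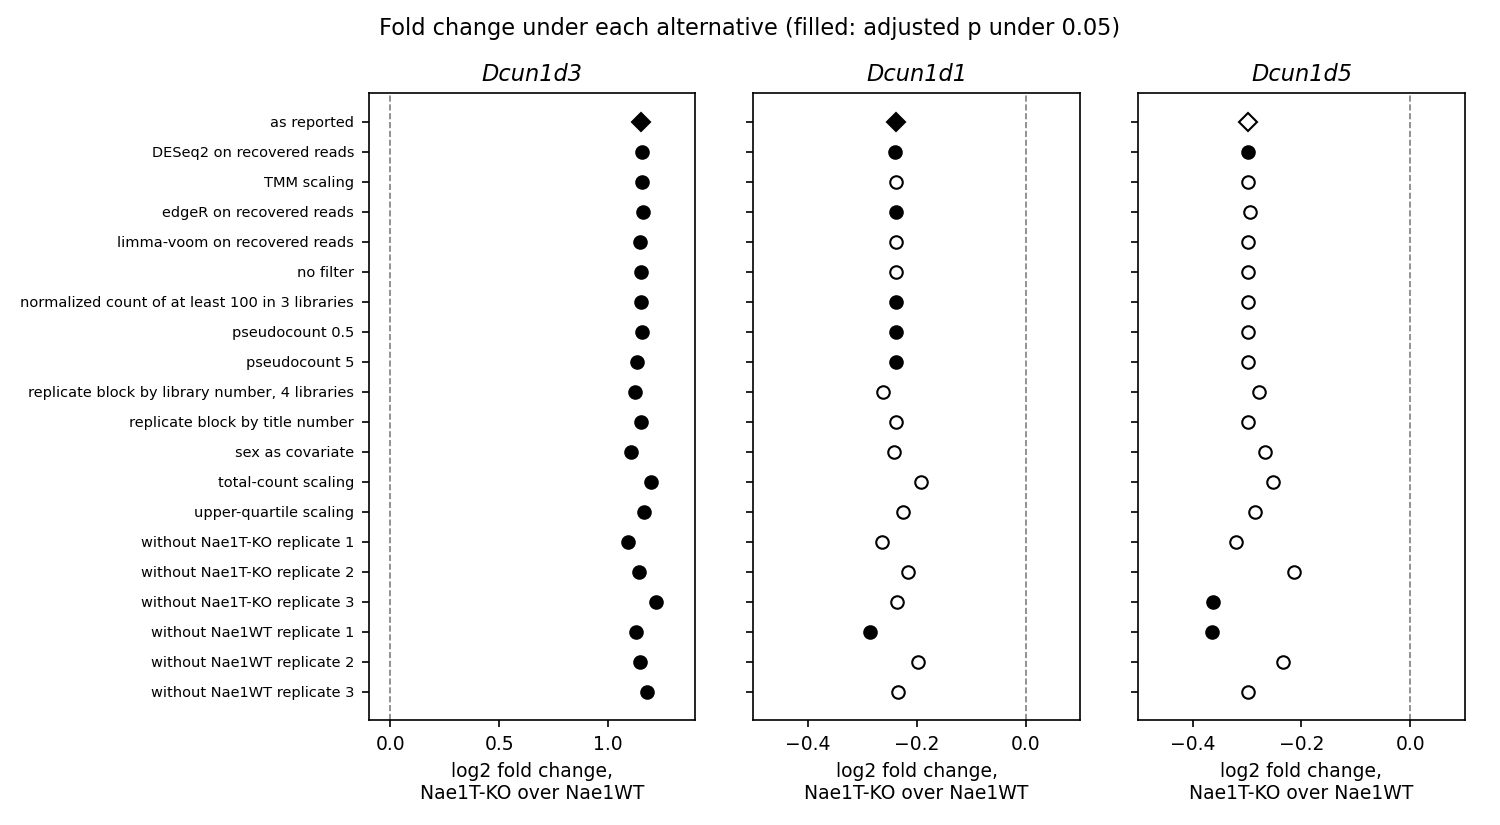
Log2 fold change of Nae1T-KO over Nae1WT for Dcun1d3, Dcun1d1 and Dcun1d5 (horizontal axes, with different ranges) as reported (diamond) and under each of 19 alternatives (circles); filled symbols had an adjusted p under 0.05. Dcun1d3 is filled throughout between 1.09 and 1.22, Dcun1d1 in 6 alternatives and Dcun1d5 in 3.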

How the data were processed

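The deposited signal values are normalized counts, with a column for each of the 6 libraries. Per the submitters' processing notes, bcl2fastq, HISAT2, DESeq2 1.42.0 and the build mm10 were used; the read counter, annotation and strand setting were not stated. Per the labels' protocols, libraries were made from poly-A-selected RNA with random-hexamer priming. Each deposited value was a whole multiple of the value of 1 read (tolerance 0.001 of a read, 100% of values), which gave whole reads per gene. In Nae1T-KO replicate 3 that step was near 1, at 1.00977, and 100% of its values were whole multiples of it.

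Genes with at least 10 normalized counts in at least 3 libraries entered a limma 3.58.1 fit (R 4.3.3; trend, robust, group only) of log2(normalized count + 1). A two-sided, Benjamini-Hochberg adjusted p under 0.05 was called. The members and gene lists were chosen with earlier results of these data known. Named were the members, Nae1, Uba3, Cand2, up to 3 called genes per list with a mean of at least 50, and the 3 nearest profiles per member among genes with a mean of at least 50; Lyrm1, Gm15952, Rpl32, the single marker genes and the motifs were chosen after the values were seen. Alternatives were 3 scalings, 2 filters, pseudocounts of 0.5 and 5, recovered reads in DESeq2 1.42.0, edgeR 4.0.16 or limma-voom, 2 replicate blocks, sex, and each library left out. Exonic lengths (in place of the planned RefSeq transcript lengths) and overlaps came from GENCODE M21 (GRCm38).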

Additional observations from a re-analysis of the deposited data

How the results depend on the processing

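Each of the 6 genes kept its sign under all 19 alternatives. The 2 filters and the replicate block by title could not change a fold change, only its p-value. The pairs alike in Xist, added after seeing the data, gave the same sign for each median. For Cand1, 1 of the 4 pairs was negative (-0.03). Dcun1d1 lost its call at a log2 fold change of -0.24 with TMM scaling, limma-voom, no filter and sex, -0.23 with upper-quartile and -0.19 with total-count scaling. With 1 library left out Dcun1d1 ran from -0.29 to -0.20; it passed at -0.29, without Nae1WT replicate 1, and lost the call at -0.26 to -0.20 without each of the others. Dcun1d5 passed in DESeq2 (-0.30) and had -0.36 to -0.21 with 1 library left out. The count of members called lower was therefore 2 in DESeq2, 0 in upper-quartile, total-count and TMM scaling, limma-voom, no filter and sex, and 0 to 2 with 1 library left out. By title, same-numbered libraries had r of -0.13, -0.18 and -0.27 between their deviations from the group means. Every same-numbered pair was of opposite sex, and Xist and Y-linked genes were kept in. These r values therefore cannot show whether the numbers mark pairs. The main fit did not treat the numbers as pairs. With the replicate block by title, Dcun1d3 had 1.15 (adjusted p = 0.00321), Dcun1d1 -0.24 and 0 members were called lower, with 968 of all genes called. With the replicate block by library number on 4 libraries, Dcun1d1 had -0.26, 0 members were called lower, 314 of all genes and 2 pathway genes were called. With 1 library left out, 842 to 1767 of all genes were called and 3 to 7 pathway genes, against 1757 and 5 with all libraries. Dropping replicate 2 of Nae1T-KO gave 1017 genes, and dropping replicate 2 or 3 of Nae1WT gave 842 and 954. Uba3 ranged from -0.0150 to 0.0933 with 1 library left out, being negative when replicate 1 (-0.0108) or 3 (-0.0150) of Nae1T-KO or replicate 1 (-0.00587) of Nae1WT was dropped. The order of the 6 levels in Nae1WT was the same without division by length, whereas in Nae1T-KO Cand1 then stood above Dcun1d5. Depth limits Dcun1d3 and Dcun1d4 most, at 115 to 373 reads per library. Causes of these changes were not tested.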
